A study of Mus musculus with 2 samples.

Results

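The genes described here are 10 interferon-induced GTPase genes of the mouse, given as a fixed list of names among the 32285 genes of the deposited tables: Iigp1, Igtp, Irgm1, Irgm2, Tgtp1, Gbp2, Gbp3, Gbp4, Gbp7 and Gbp10. All 10 were found, and their expression was compared between 2 single-cell libraries of lymph node immune cells. One library came from wild-type mice (WT) and the other from mice carrying an RPA1 conditional knockout (CKO). RPA1 is the large subunit of the complex that binds single-stranded DNA when DNA is copied or repaired. Both genotypes were on the C57BL/6 background, and each was represented by 1 library made with a 10x Genomics 3′ v3.1 kit. The deleted exons, the driver of the deletion, the age of the mice and the number of mice or nodes behind each library are not given in the sources used here. With 1 library per genotype no difference has a replicate check, no test was made, and every interval below is an exact 95% interval for counting error only. A ratio therefore compares these 2 libraries.

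These genes encode large GTPases that cells make in response to interferons. The immunity-related GTPases (IRG) and the guanylate-binding proteins (GBP) assemble on the membranes around intracellular parasites and bacteria and break them open, a defence best known in mouse macrophages and fibroblasts infected with Toxoplasma gondii or Chlamydia. Among the IRG proteins, Irgm1, Irgm2 and Igtp (also called Irgm3) are regulators that sit on host membranes and hold the effectors in an inactive state, whereas Iigp1 (Irga6) and Tgtp1 (Irgb6, first described in T cells) are effectors that load onto the vacuole around the parasite. The GBP proteins form polymers on exposed membranes. Gbp2 restricts Toxoplasma growth in mouse cells, Gbp7 has been tied to the phagocyte oxidase and to autophagy proteins, and Gbp3, Gbp4 and Gbp10 belong to the same clustered family. Interferon gamma acts on such genes at gamma-activated sites (GAS), and type I interferon acts at interferon-stimulated response elements (ISRE), which IRF1 can bind as well.

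Each of the 7 genes searched held the ISRE letters before its start, and 4 of them also held the GAS letters. RefSeq promoter sequences on GRCm38.p6 were used for 7 of the 10 genes (Igtp, Irgm1, Irgm2, Tgtp1, Gbp2, Gbp3 and Gbp7), and the 250 bases before each start were searched on both strands. Gbp4 and Gbp10 had no match by name. Iigp1 was left out of the search, so nothing is said here of its promoter. The ISRE letters, GAAA followed after any 2 bases by a second GAAA, were present before 7 of these 7 genes, against 3.46% of 27025 genes with a promoter in the same tables. The GAS letters TTCNNNGAA were present before 4 of the 7, namely Igtp, Irgm2, Tgtp1 and Gbp7, against 8.13% of all genes. In Igtp, Irgm2 and Tgtp1 the GAS letters were followed on the printed strand by the ISRE letters after a gap of 2 bases. That arrangement occurred before only 5 of the 27025 genes (0.0185%), and the other 2 genes were Tgtp2 and Gm12185, near copies beside Tgtp1. Igtp and Irgm2 are also nearly identical around the pair, as their windows below show. The 5 genes are therefore not 5 independent occurrences. The paired elements of the 3 genes, GAS then ISRE in capitals and read 5′ to 3′, are shown because they differ by few letters:
Igtp: TTCTAGGAActGAAACTGAAA
Irgm2: TTCCAGGAActGAAACTGAAA
Tgtp1: TTCCAGGAAtcGAAACTGAAA
Relative to the RefSeq start, they spanned bases -45 to -25 in Igtp, -75 to -55 in Irgm2 and -88 to -68 in Tgtp1.

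The 120 bases before the start of Igtp, Irgm2 and Gbp7 show these letters in their setting, with every GAS and ISRE match in capitals. Igtp and Irgm2 carry the pair, and in Gbp7 the matches stand apart, 2 of GAS and then 1 of ISRE on the opposite strand. The windows are chr11:58199436-58199555 (plus strand) for Igtp, chr11:58214857-58214976 (plus strand) for Irgm2 and chr3:142530216-142530335 (plus strand) for Gbp7, all on GRCm38.p6. No annotated exon overlaps them. The Irgm2 window lies before the RefSeq start but inside the longer GENCODE gene (58199618 to 58222782). No GENCODE transcript start of Irgm2 was found at that RefSeq start.
Igtp: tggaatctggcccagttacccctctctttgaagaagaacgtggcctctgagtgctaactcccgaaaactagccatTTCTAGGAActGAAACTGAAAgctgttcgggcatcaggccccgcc
Irgm2: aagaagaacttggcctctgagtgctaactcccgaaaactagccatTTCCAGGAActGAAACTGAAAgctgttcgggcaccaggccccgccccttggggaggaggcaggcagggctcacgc
Gbp7: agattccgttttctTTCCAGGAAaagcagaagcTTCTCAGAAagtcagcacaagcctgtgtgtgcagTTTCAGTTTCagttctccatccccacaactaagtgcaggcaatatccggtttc
A match of letters is a description of these windows; binding was not measured here.

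In the genome the 10 genes lie in groups. On GRCm38 with GENCODE M21, Gbp7 (ENSMUSG00000040253, chromosome 3, 142530342 to 142550149, plus strand), Gbp3 (ENSMUSG00000028268, 142560026 to 142573209, plus) and Gbp2 (ENSMUSG00000028270, 142620602 to 142638008, plus) lie within 108 kb. Gbp4 (ENSMUSG00000079363, chromosome 5, 105115767 to 105139586, minus) and Gbp10 (ENSMUSG00000105096, 105215699 to 105239533, minus) lie within 124 kb. Chromosome 11 holds Irgm1 (ENSMUSG00000046879, 48861968 to 48871683, minus), Tgtp1 (ENSMUSG00000078922, 48985327 to 48994172, minus), Igtp (ENSMUSG00000078853, 58199556 to 58207591, plus) and Irgm2 (ENSMUSG00000069874, 58199618 to 58222782, plus). Iigp1 (ENSMUSG00000054072) is on chromosome 18, from 60376027 to 60392634 on the plus strand.

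Near-identical neighbours limit what a 3′ read can assign. Of the 90-base windows in the last 500 bases of Gbp10 transcripts, 100% were also present in transcripts of Gm43302 or Gbp6, and for Tgtp1 74.0% were present in Tgtp2 or Gm12185. For Gbp4 the share was 8.22%, for Gbp3 0.450%, and for the other 6 genes 0%. Counts of Tgtp1 and Gbp10 are therefore uncertain. Igtp with Irgm2, Gbp4 with Gbp8 and Gbp9, and Gbp7 with Gm43802 also overlap on 1 strand, so their counts carry some uncertainty too. Without Tgtp1 and Gbp10 the summed ratio in T cells was 1.39, the value obtained with them.

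The WT library held 12769 barcodes with 84813609 UMIs (unique molecular identifiers, 1 per captured RNA molecule) and the CKO library 13754 with 76200586; 56 barcode sequences occurred in both. After filters on mitochondrial share and doublets, 11169 WT and 11804 CKO cells were kept. They were gated on raw UMIs: T cells had at least 2 UMIs of Cd3d, Cd3e and Cd3g together and none of Cd79a, B cells at least 2 of Cd79a and none of Cd3e, and natural killer (NK) cells at least 1 of Ncr1 and none of Cd3e. The T cell gate held 7707 WT cells (69.0% of kept cells) and 3514 CKO cells (29.8%), the B cell gate 2750 (24.6%) and 7310 (61.9%), and the NK gate 81 and 236. T cells were split by their Foxp3, Trdc, Cd4 and Cd8b1 UMIs into gates of 2803 WT and 1347 CKO CD4 cells, 2779 and 459 CD8 cells, 265 and 235 Foxp3 cells, 230 and 616 Trdc cells (the constant gene of the delta receptor chain) and 1630 and 857 others. Median UMIs per cell were 6301 and 5790 in T cells, 4037 and 3878 in B cells and 5178 and 5365 in NK cells. Rpa1 itself stood at 40.6 CPM (UMIs per 1000000 UMIs of the gate) in WT and 26.1 in CKO T cells, a ratio of 0.642 (0.584 to 0.704), at 40.9 and 35.6 in B cells, and at 41.1 and 54.0 in NK cells. These are 3′ counts over a gene whose deleted part is not given, so they check the labels only in part.

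T cells of the CKO library held more UMIs of the GTPase genes than WT T cells. Summed over the 10 genes the level was 721 CPM in WT and 1003 in CKO, a ratio of 1.39 (1.37 to 1.42). The 5 IRG genes together stood at 339 and 498 CPM (ratio 1.47, 1.44 to 1.51) and the 5 GBP genes at 382 and 505 (1.32, 1.29 to 1.35). Each of the 10 genes was higher in CKO with an interval above 1, and 2 of them, Iigp1 and Gbp10, were at least 1.5-fold higher. Over all 8696 genes with a mean of at least 5 CPM in T cells, 35.7% had an interval above 1 and 2.44% were at least 1.5-fold higher. None of the 10 was at least 1.5-fold lower or had an interval below 1, against 0.931% and 9.36% of all genes. The median log2 ratio was 0.42 for the 10 genes and 0.08 for all 8696.

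The effector Iigp1 stood farthest apart. It was at 65.0 CPM in WT and 136 in CKO T cells, a ratio of 2.10 (1.99 to 2.20), at the 99.4th percentile of all gene ratios. The other effector, Tgtp1, was at 46.6 and 62.2 CPM (1.34, 1.25 to 1.43). The intervals of the 2 effectors' ratios do not overlap. Of the regulators, Igtp was at 122 CPM in WT and 167 in CKO (1.37, 1.31 to 1.43), Irgm1 at 84.5 and 105 (1.24, 1.18 to 1.31), and Irgm2, the lowest of the 3, at 20.8 and 27.9 (1.34, 1.21 to 1.48). The 3 regulators and Tgtp1 thus differed between the libraries by similar factors, and Iigp1 by more.

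Among the GBP genes, Gbp7 was at 156 CPM in WT and 228 in CKO T cells, a ratio of 1.46 (1.41 to 1.51). Gbp10 was low in both libraries, at 9.75 and 17.0 CPM, with a ratio of 1.74 (1.52 to 1.99). Gbp4 stood at 131 and 159.7 CPM (1.22, 1.17 to 1.27) and Gbp2 at 72.9 and 85.4 (1.17, 1.11 to 1.24). Gbp3, also low, was at 12.1 and 14.9 CPM (1.23, 1.07 to 1.41). Gbp2, Gbp3 and Gbp7 are neighbours on chromosome 3, and the interval of Gbp7 lay above that of Gbp2. Across all genes in T cells the central 90% of log2 ratios ran from -0.24 to 0.42, and 6 of the 10 GTPase genes lay above that range.

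**Figure D1:**
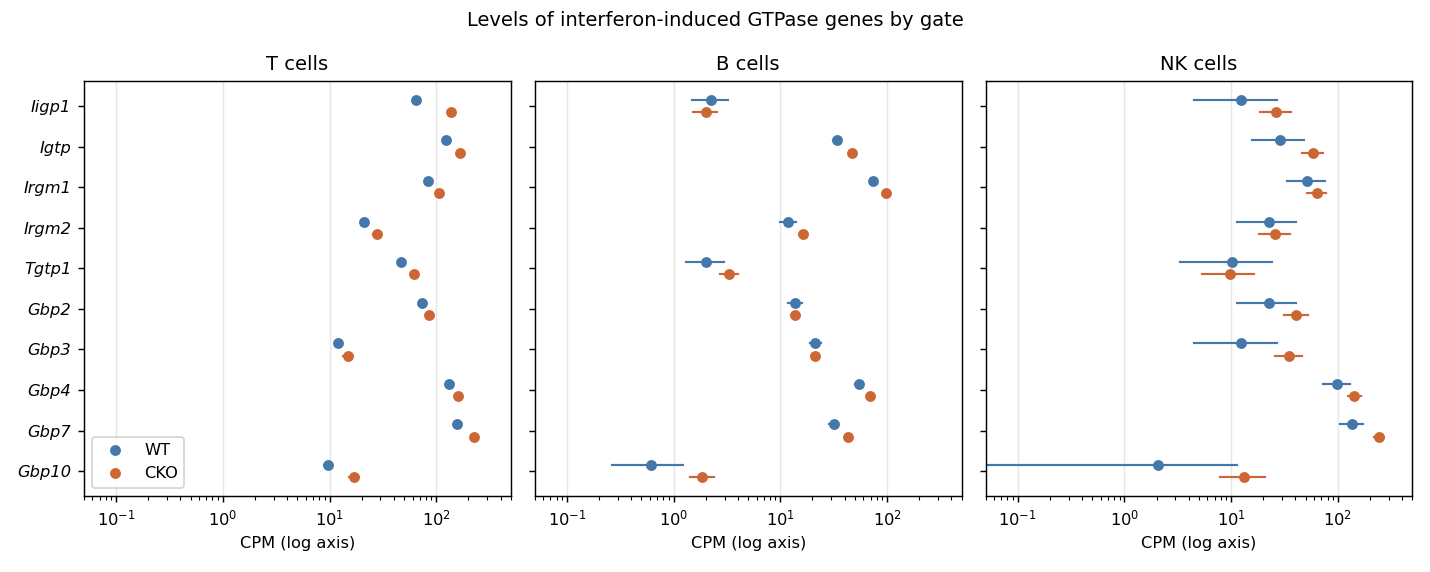
Level of each of the 10 genes in CPM (log axis) in T, B and NK cells of the WT library (blue) and the CKO library (orange); points are levels and bars exact 95% Poisson intervals for counting error. In T cells every CKO point lies to the right of its WT point; in B cells Iigp1, Tgtp1 and Gbp10 lie below 4 CPM in both libraries.

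The plot of levels by gate shows each gene in both libraries, and the plot of ratios among all genes places the same T and B cell ratios on the spread of every measured gene. In the T cell panel the 10 lines stand right of 0, from Gbp2 to Iigp1.

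**Figure D2:**
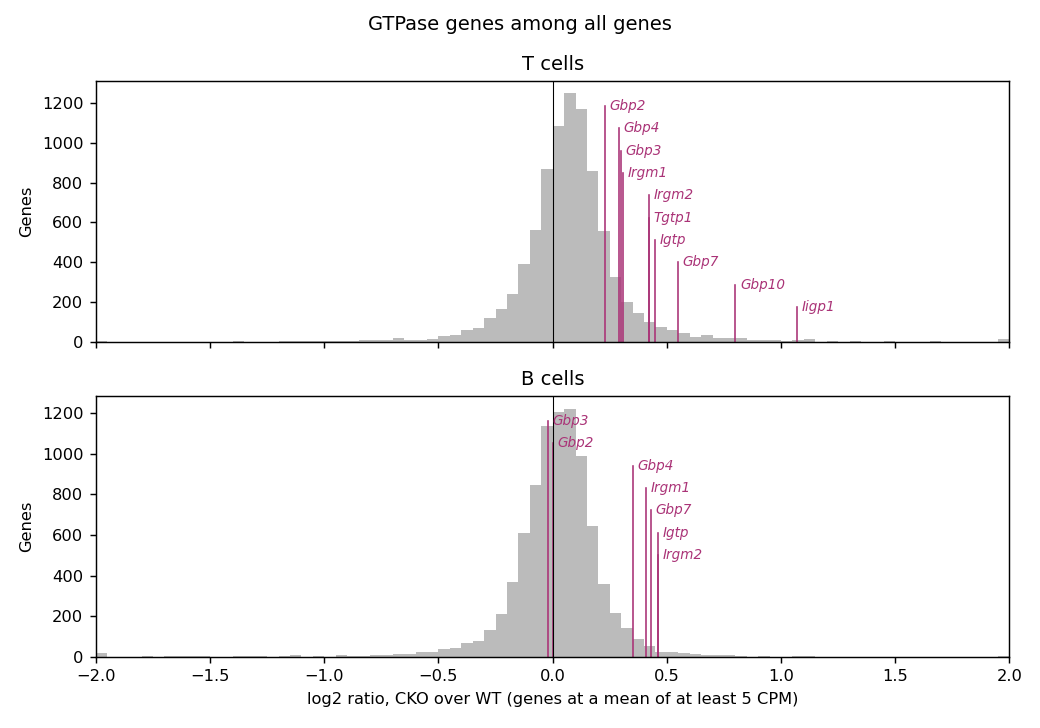
Grey bars count genes by log2 ratio of CKO over WT in T cells (8696 genes) and B cells (8755 genes) with a mean of at least 5 CPM; purple lines mark the GTPase genes that passed this filter, 10 in T cells and 7 in B cells. The T cell lines lie between the 84.4th and 99.4th percentile of all genes, and the B cell lines between the 36.6th and 98.5th.

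The T cell gates differed in size between the libraries, with CD8 cells fewer and Trdc cells more in CKO, so the ratios were taken within each gate. Weighting the T cell gates by their WT shares left the summed ratio at 1.39. In CD4 cells the summed level was 636 CPM in WT and 877 in CKO (1.38, 1.34 to 1.42). There 8 of the 10 genes had an interval above 1 and 3 were at least 1.5-fold higher (Iigp1, Gbp7 and Gbp10), against 17.5% and 1.73% of all genes. None was at least 1.5-fold lower (1.83% of all genes) or had an interval below 1 (8.72%). Iigp1 was at 67.1 and 125 CPM (1.87, 1.72 to 2.03) and Gbp7 at 128 and 198 (1.54, 1.44 to 1.64). Gbp2 (58.3 and 64.0 CPM) and Gbp3 (6.90 and 8.97) had intervals that held 1.

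In CD8 cells the summed level was 771 CPM in WT and 1079.7 in CKO (1.40, 1.35 to 1.45). The ratio of Iigp1 there was 2.66 (2.37 to 2.98), from 49.6 to 132 CPM, and its interval lay above that of CD4 cells. Intervals above 1 were found for 9 of the 10 genes, and 2 were at least 1.5-fold higher (Iigp1 and Gbp10, at 12.7 and 24.1 CPM), against 22.1% and 5.54% of all genes. None was at least 1.5-fold lower (1.68% of all genes) or had an interval below 1 (5.07%). The exception was Gbp3, at 14.4 CPM in both libraries (0.997, 0.715 to 1.36). The median log2 ratio of all genes in this gate was 0.11 and that of the 10 genes 0.43. Summed markers of cycling cells were 81.2 CPM in WT and 183 in CKO CD8 cells, and their part in these ratios was not tested.

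In Trdc cells the summed level was 788 CPM in WT and 1166 in CKO (1.48, 1.39 to 1.58). Of the 9 genes that passed this gate's minimum of 20 CPM, 3 were at least 1.5-fold higher, against 6.25% of all genes: Iigp1 at 74.6 and 153 CPM (2.05, 1.68 to 2.52), Gbp7 at 175 and 279 (1.59, 1.39 to 1.82) and Gbp3 at 12.9 and 29.0 (2.26, 1.40 to 3.81). Gbp3 passed because of its CKO level. Intervals above 1 were found for 8 of the 9, against 15.7% of all genes, and none had an interval below 1 (7.48%) or was at least 1.5-fold lower (2.50%). Irgm2 was at 30.2 and 31.7 CPM (1.05, 0.749 to 1.49). The gate did not hold like cells in both libraries: summed gamma delta receptor markers were 692 CPM in WT and 1235 in CKO, 6 NK markers 524 and 1468, and 7 myeloid markers 107 and 239. The part of these differences in the GTPase ratios was not tested. In the remaining T cells, with no UMI of the 4 genes used to split the gate or with UMIs of both Cd4 and Cd8b1, the summed level was 735 and 1049 CPM (1.43, 1.38 to 1.48), 9 of 10 genes had intervals above 1 (15.6% of all genes), and 3 were at least 1.5-fold higher (2.78% of all genes). None had an interval below 1 (6.84% of all genes) or was at least 1.5-fold lower (2.50%). In these cells 7 myeloid markers summed to 244 CPM in WT and 118 in CKO and 6 NK markers to 111 and 63.6, and their part in the ratios was not tested.

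Foxp3 cells, the gate of regulatory T cells, gave the smallest summed ratio of the T cell gates. The level was already 821 CPM in WT, the highest of the WT gates, and it was 883 in CKO (1.08, 0.999 to 1.16). Iigp1 was highest in this gate in WT, at 128 CPM, and stood at 115 in CKO (0.902, 0.738 to 1.1). That interval held 1, and on thinned cells Iigp1 was not lower in CKO (its counts are given with the marker classes below). Igtp was at 146 and 154 CPM (1.06, 0.882 to 1.26), Gbp2 at 69.4 and 63.5 (0.915, 0.695 to 1.2) and Gbp4 at 115 and 122 (1.07, 0.870 to 1.30). Of the 9 genes that passed the filter, 1 was at least 1.5-fold higher (3.86% of all genes) and 1 at least 1.5-fold lower (5.90% of all genes). The first was Tgtp1, at 28.7 and 47.6 CPM (1.66, 1.15 to 2.40), and the second Gbp3, at 39.7 and 19.3 (0.486, 0.304 to 0.757, from 79 and 28 UMIs). Gbp3 passed because of its WT level. Intervals above 1 were found for 3 genes (Irgm1, Tgtp1 and Gbp7), against 9.16% of all genes, and below 1 for Gbp3 alone, against 9.07%.

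In the same Foxp3 cells, 11 of 16 antiviral genes that passed the filter were at least 1.5-fold higher in CKO (3.86% of all genes), with a median log2 ratio of 0.71, beside 0.08 for the GTPase genes and 0.00 for all 5547 genes. Isg15, a ubiquitin-like antiviral protein, was at 264 CPM in WT and 682 in CKO there. The 4 regulatory T cell markers summed to 1489.8 CPM in WT and 1315 in CKO, and 6 B cell markers to 391 and 179. Whether these differences bear on the GTPase levels was not tested.

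**Figure D3:**
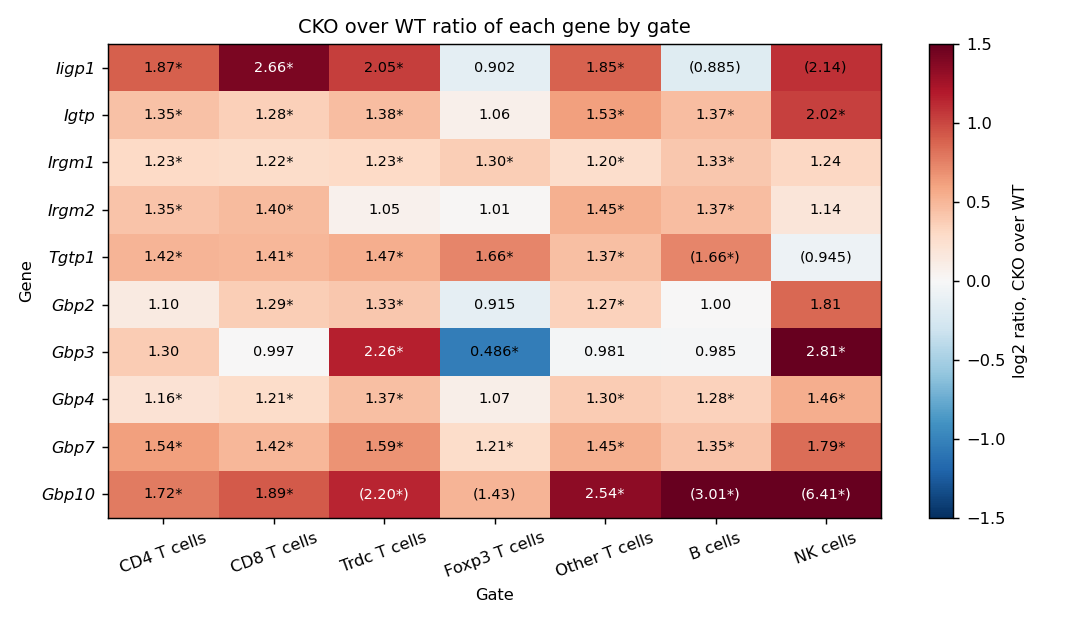
Ratio of CKO over WT for each of the 10 genes (rows) in 7 gates (columns), coloured by log2 ratio; an asterisk marks a 95% counting interval that does not hold 1, and brackets mark a gene below the filter of its gate. Among the T cell gates Iigp1 runs from 0.902 in Foxp3 cells to 2.66 in CD8 cells, and its bracketed value in B cells is 0.885; Gbp3 runs from 0.486 in Foxp3 cells to 2.81 in NK cells.

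The heat map of ratios by gate shows a row of high values for Iigp1 in T cell gates other than Foxp3, an even row for Irgm1 (1.2 to 1.33 in the 7 gates) and a mixed row for Gbp3. For Irgm1 the interval held 1 in NK cells, where its ratio was 1.24 (0.791 to 2.02). The ratios shown are of cells that were not thinned.

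B cells expressed fewer of the GTPase genes and at lower summed levels, 245 CPM in WT and 315 in CKO (1.28, 1.23 to 1.34). Irgm1 was at 73.3 CPM in WT and 97.5 in CKO B cells (1.33, 1.24 to 1.43), Igtp at 34.0 and 46.7 (1.37, 1.23 to 1.53) and Irgm2 at 11.8 and 16.2 (1.37, 1.14 to 1.65). Gbp4 was at 54.5 and 69.7 CPM (1.28, 1.17 to 1.39) and Gbp7 at 31.8 and 42.9 (1.35, 1.21 to 1.51). Gbp2 was at 13.8 CPM in both libraries (1.0, 0.840 to 1.2), and Gbp3 at 21.3 and 21 (0.985, 0.855 to 1.14).

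Of the 7 genes that passed the filter in B cells, none was at least 1.5-fold higher (0.777% of all genes were), and 5 had an interval above 1 (17.3% of all genes). None was at least 1.5-fold lower (1.5% of all genes) or had an interval below 1 (10.9%). The effectors were nearly lacking: Iigp1 was at 2.24 CPM in WT and 1.99 in CKO (29 and 65 UMIs), and Tgtp1 at 2.01 and 3.33. Gbp10 rested on 8 WT and 61 CKO UMIs, with a ratio of 3.01 (1.44 to 7.29). Plasma cell markers summed to 1409 CPM in WT and 562 in CKO B cells and cycling markers to 139 and 42.6, and their part in the B cell ratios was not tested.

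Set against T cells of the same library, Iigp1 was 29.0-fold higher in T than in B cells in WT (20.1 to 43.3) and 68.6-fold in CKO (53.6 to 89.1). Tgtp1 was 23.2-fold higher in T cells of WT and 18.7-fold in CKO, and Gbp10 15.8-fold and 9.11-fold. Gbp2 (5.30 and 6.2), Gbp7 (4.91 and 5.31), Igtp (3.58 and 3.57), Gbp4 (2.40 and 2.29) and Irgm2 (1.76 and 1.72) followed in WT and CKO. Irgm1 was at nearly the same level in both cell types (1.15 and 1.08), and Gbp3 was lower in T than in B cells (0.571 and 0.713). Free RNA sets a lower limit to such levels in droplets: Trbc2, a T cell receptor gene, stood in B cells at 1.22% of its T cell level in WT and 0.739% in CKO. Iigp1 stood in B cells at 3.45% and 1.46% of its T cell level, above the Trbc2 share in both libraries but low.

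NK cells were few, and their intervals are wide. The summed level was 396 CPM in WT and 659 in CKO, a ratio of 1.66 (1.42 to 1.95), which was 1.32 when every cell was thinned to 2000 UMIs. Gbp7 was at 136 and 243 CPM (1.79, 1.38 to 2.37), Igtp at 28.7 and 58.2 (2.02, 1.14 to 3.86) and Gbp3 at 12.3 and 34.6 (2.81, 1.21 to 8.03, from 6 and 50 UMIs). Gbp4 was at 98.5 and 143 CPM (1.46, 1.06 to 2.04), and on thinned cells its ratio was 0.946. Of the 7 genes that passed the filter, 4 were at least 1.5-fold higher (6.24% of all genes), namely Igtp, Gbp2, Gbp3 and Gbp7, and 4 had an interval above 1 (4.83% of all genes). None was at least 1.5-fold lower (8.36% of all genes) or had an interval below 1 (5.64%). Gbp3 passed because of its CKO level. Gbp2 was at 22.6 and 40.9 CPM with an interval that held 1 (0.942 to 3.82). Iigp1 (6 and 38 UMIs) and Tgtp1 (5 and 14) were below the filter, as was Gbp10, with 1 WT and 19 CKO UMIs and a ratio of 6.41 (1.02 to 266). Of the NK cells, 12 in WT and 26 in CKO also passed the T or B cell gate and were counted as NK cells only, and B cell markers summed to 503 and 397 CPM among NK cells.

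Cells that passed none of the T, B and NK gates (631 in WT and 744 in CKO) held a summed GTPase level of 598 CPM in WT and 755 in CKO (1.26, 1.2 to 1.32). All 10 genes passed the filter there, 6 had an interval above 1 (14.1% of all genes), and 2 were at least 1.5-fold higher (4.74% of all genes): Gbp7 at 106 and 165 CPM (1.56, 1.40 to 1.74) and Gbp10 at 7.0 and 12.6 (1.80, 1.18 to 2.78). None was at least 1.5-fold lower (2.56% of all genes) or had an interval below 1 (6.97%). Iigp1 was at 64.5 and 94.5 CPM (1.46, 1.27 to 1.69) and Gbp3 at 25.5 and 21.5 (0.844, 0.650 to 1.1). Igkc stood at 5909.6 CPM in WT and 3542 in CKO among these cells and Trbc2 at 1353 and 1147, and the part of this make-up in the GTPase ratios was not tested.

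The order of levels between gates was similar in both libraries for several genes. B cells were lowest for Iigp1, Irgm2, Tgtp1, Gbp2, Gbp4, Gbp7 and Gbp10 in WT and in CKO. Irgm1 was lowest in NK cells in both, at 51.3 CPM in WT and 63.7 in CKO, and Gbp3 was lowest in CD4 cells in both. The highest gate of Iigp1 was Foxp3 in WT (128 CPM) and Trdc in CKO (153). Gbp7, Gbp4 and Iigp1 were at their highest CKO levels in Trdc cells (279, 187 and 153 CPM), while Tgtp1 (76.9), Gbp2 (110.0) and Gbp10 (24.1) were highest in CD8 cells. Neighbouring gates often overlapped within counting error, as for Irgm1 in CKO, at 114 CPM in Trdc cells and 109.7 in other T cells.

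Without gates the comparison would read differently. Over all kept cells, where T cells made up 69.0% of WT and 29.8% of CKO cells, Tgtp1 was lower in CKO (37.0 and 27.7 CPM, ratio 0.748, 0.703 to 0.795), and so were Gbp2 (60.9 and 46.0, 0.756) and Igtp (104 and 95.5, 0.920). Each of these was higher in CKO within T cells. Gbp3, which is lower in T than in B cells, was at 14.8 and 19.2 CPM over all cells (1.30, 1.19 to 1.41).

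The cells carrying these UMIs were counted after thinning each cell to 2000 UMIs, which left out 36 WT and 23 CKO T cells with fewer. A UMI of at least 1 of the 10 genes was found in 58.1% of WT T cells (57.0 to 59.2) and 64.1% of CKO T cells (62.5 to 65.7). Without thinning the shares were 85.9% and 86.8%. For Iigp1 the thinned share was 8.54% in WT and 16.0% in CKO, with 1.55 and 1.84 UMIs per positive cell, and unthinned it was 16.2% and 26.6%. The share of B cells with an Iigp1 UMI was 0.368% and 0.264%. For Gbp7 the thinned T cell shares were 21.7% and 29.5%, and for Igtp 19.4% and 24.3%.

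The relative difference in the share of cells was larger in classes with many GTPase UMIs. A higher mean alone would have that effect, so these shares do not show in which cells the difference lies. Cells with 10 or more UMIs of the 10 genes made up 1.26% of WT T cells (97 cells) and 3.32% of CKO T cells (116 cells), and cells with 5 to 9 made up 6.56% and 11.1%. At least 3 different genes were detected in 14.0% of WT T cells (13.3 to 14.8) and 21.4% of CKO T cells (20 to 22.8), and at least 5 in 2.87% and 6.45%. The mean was 1.47 and 2.10 UMIs per T cell. In both libraries the 10% of T cells with the most GTPase UMIs held a similar share of them, 45.1% in WT and 44.9% in CKO. In B cells, 31.5% and 35.9% had a UMI, at least 3 genes were detected in 2.58% and 3.63%, and the top 10% held 55.7% and 52.7%. In NK cells the shares with a UMI were 55.6% (44.1 to 66.6) and 60.5% (53.9 to 66.8), which overlap.

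**Figure D4:**
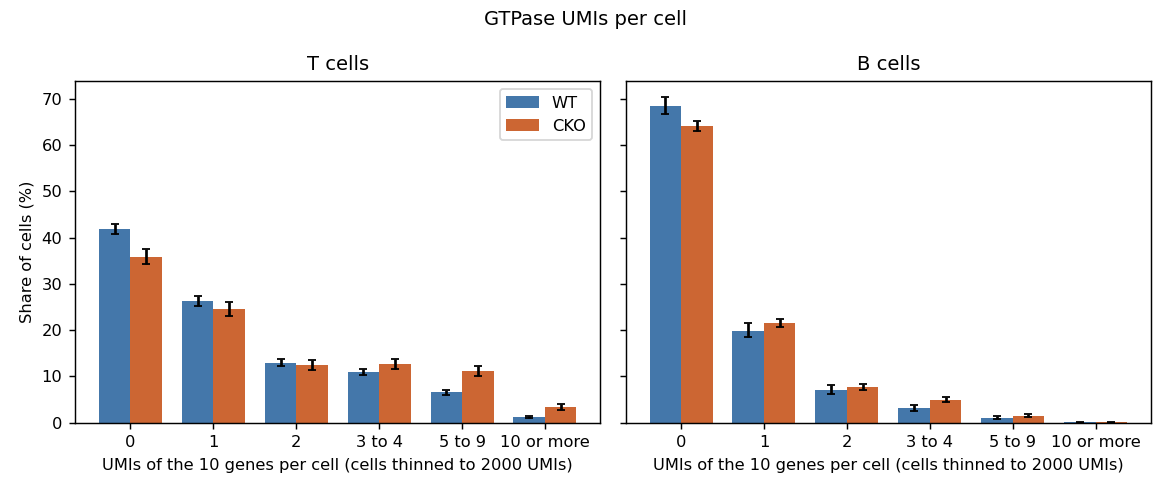
Share of T cells and B cells (%) by the number of UMIs of the 10 genes, after thinning each cell to 2000 UMIs, in WT (blue) and CKO (orange); bars are shares and error bars exact 95% binomial intervals. In T cells the class with 0 UMIs is 41.9% in WT and 35.9% in CKO, and the class with 5 to 9 UMIs is 6.56% and 11.1%.

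GTPase UMIs were concentrated in cells that also held antiviral transcripts. Cells were divided by their thinned UMIs of Rsad2, Ifit1, Ifit3 and Usp18, 4 type I interferon-stimulated genes that are not among the 10. Such a UMI was found in 32.9% of WT T cells (31.8 to 33.9) and 46.1% of CKO T cells (44.5 to 47.8). In T cells with a marker UMI the summed GTPase level was 1339 CPM in WT and 1794 in CKO (1.34, 1.29 to 1.39). In T cells without one it was 437 and 412 (0.943, 0.889 to 0.999), slightly lower in CKO. The summed level climbed with the number of marker UMIs in both libraries: at 1 UMI it was 703 CPM in WT and 749.5 in CKO, at 2 UMIs 1064 and 1216, at 3 to 4 UMIs 1534 and 1798, and at 5 or more 2745 and 3267. In these 4 classes the ratios were 1.07 (0.978 to 1.16), 1.14 (1.03 to 1.27), 1.17 (1.08 to 1.27) and 1.19 (1.13 to 1.25). T cells with 5 or more marker UMIs made up 6.79% in WT and 13.9% in CKO.

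A pair of reweighted values describes how far the number of marker UMIs and the GTPase ratio moved together. With WT levels in each class and the CKO share of cells per class, the summed ratio in T cells was 1.29. With CKO levels and the WT shares it was 1.07, beside 1.43 for the thinned cells as they were. For 8 of the 10 genes the latter value lay between 0.924 (Gbp4) and 1.15 (Gbp7), and for Gbp10 it was 1.17. For Iigp1 it was 1.47, beside a thinned ratio of 2.22. Iigp1 stood higher in CKO in each marker class: at 27.3 CPM in WT and 31.4 in CKO without a marker UMI, at 49.5 and 88.1 with 1, at 111 and 146 with 2, at 177 and 268 with 3 to 4, and at 352 and 582 with 5 or more. The intervals of the 2 libraries overlapped without a marker UMI and with 2 (90.4 to 135 in WT and 115 to 182 in CKO). The class of 5 or more has no upper end, so its cells need not match in marker level. Its ratio was 1.93 (1.75 to 2.13) in cells with a marker UMI and 1.15 (0.920 to 1.43) in cells without. In cells without, Gbp7 was at a ratio of 1.15 (1.02 to 1.30), whereas Gbp4 (0.811, 0.708 to 0.927) and Tgtp1 (0.750, 0.576 to 0.966) were lower in CKO.

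**Figure D5:**
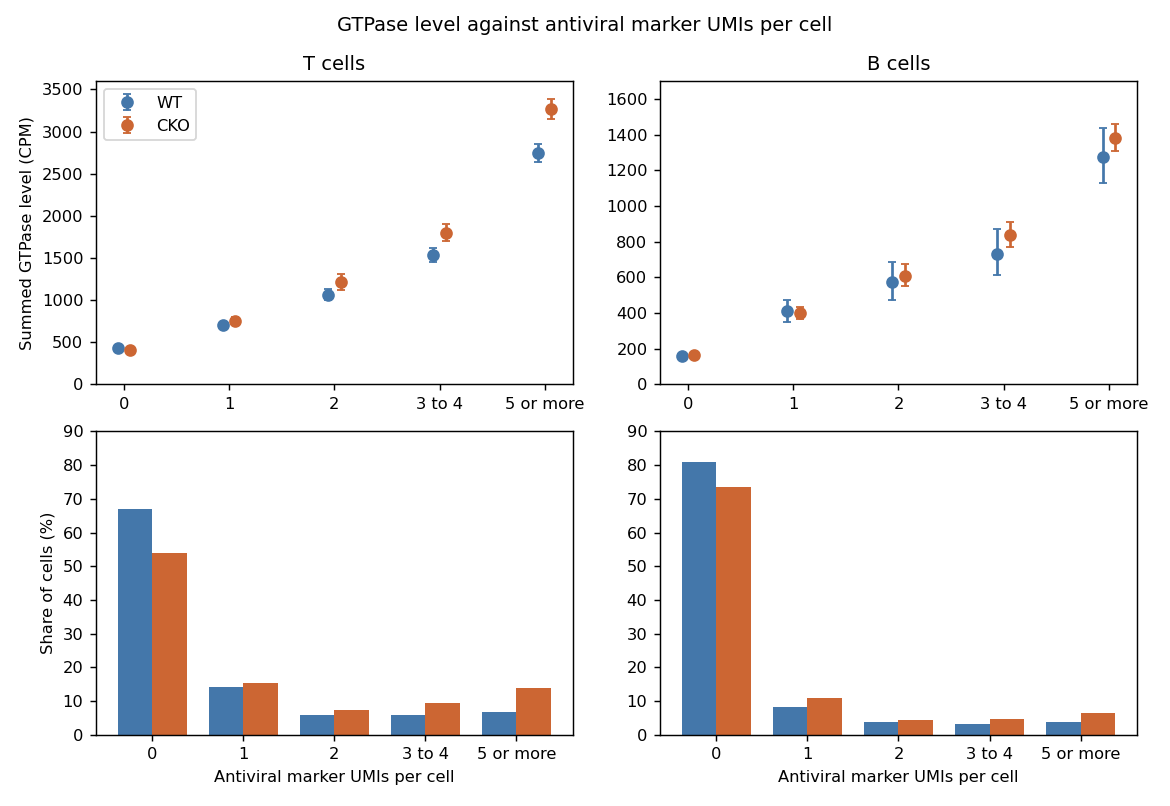
Upper panels show the summed level of the 10 genes (CPM, points with exact 95% Poisson intervals) in T and B cells grouped by their UMIs of Rsad2, Ifit1, Ifit3 and Usp18 after thinning to 2000 UMIs; lower panels show the share of cells (%) in each class, WT in blue and CKO in orange. Levels climb with marker UMIs in both libraries, from 437 to 2745 CPM in WT T cells and from 412 to 3267 in CKO T cells, and the class with 5 or more holds 6.79% of WT and 13.9% of CKO T cells.

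The same division in B cells gave marker UMIs in 19.2% of WT and 26.5% of CKO cells. The summed GTPase ratio was 1.12 (1.03 to 1.22) with a marker UMI and 1.01 (0.923 to 1.1) without, and 1.03 with CKO levels and WT shares. In Foxp3 cells marker UMIs were found in 27.3% and 47.2% of cells, yet the summed ratio was 1.07 (0.903 to 1.27) with and 0.744 (0.583 to 0.946) without. Iigp1 had 36 UMIs in 72 WT and 59 in 110 CKO Foxp3 cells with a marker UMI. Without a marker UMI it had 25 in 192 WT and 5 in 123 CKO Foxp3 cells. WT Foxp3 cells without a marker UMI held 562 CPM of the GTPase genes, against 401 in WT CD4 cells without one. In NK cells the shares were 14.8% and 25.8%, and the ratios 1.53 (0.976 to 2.50) and 0.978 (0.723 to 1.34).

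Other genes of the pathway were taken from fixed lists. Of 15 further interferon-induced GTPase genes found in the tables, 10 passed the filter in T cells. None was at least 1.5-fold higher there (2.44% of all genes were), 9 had an interval above 1 (35.7% of all genes), and the median log2 ratio was 0.29, below the 0.42 of the 10 genes and above the 0.08 of all genes. The highest were Gbp6 (84.0 and 118 CPM, 1.41) and Ifi47, an IRG effector gene (201 and 255, 1.27), and the lowest Gbp5 (26.6 and 31.4, 1.18) and Gbp9 (76.1 and 91.0, 1.2). The 3′ sequence of Gbp10 is shared with Gm43302 or Gbp6, so the Gbp6 count may not be independent of the Gbp10 count. In B cells 2 of 10 were at least 1.5-fold higher (0.777% of all genes) and the median was 0.36, with Gm4070 (25.3 and 39.0 CPM, 1.54) and Gbp9 (52.4 and 74.3, 1.42) highest and Gbp5 (27.2 and 30.1, 1.11) and 9930111J21Rik1 (20.6 and 24.2, 1.17) lowest.

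Antiviral genes differed more between the libraries than the GTPase genes. In T cells 13 of 18 were at least 1.5-fold higher in CKO, against 2.44% of all genes, with a median log2 ratio of 0.73. In B cells it was 13 of the 17 that passed the filter, against 0.777% of all genes, with a median of 0.68. Rsad2, which makes a chain-terminating nucleotide, was at 56.1 and 111 CPM in T cells (1.97), and Isg15 at 348 and 657 (1.89). The lowest in T cells were Rtp4 (99.6 and 125 CPM, 1.26) and Ddx58, the sensor RIG-I (107 and 141, 1.32). In B cells Oas3 (20.7 and 39.4 CPM, 1.90) and Ifit3b (31.3 and 54.1, 1.73) were highest, and Eif2ak2 (80.3 and 102, 1.27) and Zbp1 (94.2 and 120.1, 1.28) lowest. The marker classes above use 4 genes of the antiviral and signalling lists.

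Among 15 receptor and signalling genes, 4 were at least 1.5-fold higher in T cells (2.44% of all genes) and 2 in B cells (0.777%), with median log2 ratios of 0.24 and 0.20. Intervals above 1 were found for 12 in T cells (35.7% of all genes) and 8 in B cells (17.3%). None lay below 1 in either. In T cells the list was led by 2 inhibitors of interferon signalling that are themselves interferon-induced, Usp18 (86.0 and 158 CPM, 1.84) and Socs1 (52.5 and 93.0, 1.77). The receptor chain Ifnar2 (55.6 and 56.1 CPM, 1.01) and the kinase Jak1 (545 and 551, 1.01) were lowest. In B cells Usp18 (47.7 and 80 CPM, 1.68) and Irf7 (92.2 and 144, 1.56) were highest, and Jak2 (40.5 and 38, 0.938) and Ifnar2 (35.4 and 34.0, 0.961) lowest.

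Antigen processing genes, many of them induced by interferon gamma, differed by small factors between the libraries. None of 10 was at least 1.5-fold higher in T or B cells, where 2.44% and 0.777% of all genes were. Their median log2 ratios were 0.12 and -0.01, beside 0.08 and 0.03 for all genes. In T cells 9 of the 10 still had an interval above 1 (35.7% of all genes) and none below 1 (9.36%). In B cells 3 had an interval above 1 (17.3%) and 3 below (10.9%). The highest in T cells was the immunoproteasome subunit Psmb8 (604 and 698 CPM, 1.16), and B2m was at 2090.4 and 2101 (1.01) in T cells and at 1512 and 1438 (0.951) in B cells. None of 9 measured genes of the ATG8 conjugation machinery, which helps place the GTPases on vacuoles, was at least 1.5-fold higher in either. Their medians were 0.13 and 0.02. Of the 9, 7 had an interval above 1 in T cells (35.7% of all genes) and none below. None had one above 1 in B cells and 1 had one below.

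Among the interferon genes themselves, Ifng was at 3.72 CPM in WT and 9.43 in CKO T cells (2.53, 2.07 to 3.09). It was at 5.70 and 11.9 CPM in CD8 cells, at 9.0 and 35.2 in Trdc cells (3.91, 2.26 to 7.32), and at 156 and 185 in NK cells (1.19, 0.916 to 1.55). Ifng stood at 2.51 and 0.690 CPM in Foxp3 cells and at 3.34 and 2.26 in other T cells. It was below the filter in both of these gates, so no difference is read there. In CD4 cells it had no UMI in CKO, and the interferon genes summed to 1.34 CPM in WT. The ratio over all T cells pools gates whose shares differed between the libraries, with more Trdc cells in CKO. Ifnb1, Ifna4, Ifnl2 and Ifnl3 had no UMI in T or B cells of either library. In ungated cells Ifng was at 12.6 and 8.72 CPM, and these 4 genes had no UMI in ungated or NK cells either.

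Markers of other cell types in the T cell gate were similar between the libraries for B cells (6 of 6 markers with UMIs, 270.2 CPM in WT and 249.9 in CKO) and myeloid cells (7 of 7, 123 and 127), and differed for NK cells (6 of 6, 366 and 456), gamma delta cells (4 of 4, 23.2 and 259) and cycling cells (4 of 4, 91.1 and 144). In B cells the 6 T cell markers summed to 237 and 244 CPM, and Igkc, a light chain gene, stood in T cells at 27.0 and 47.2 CPM beside 16197 and 10174 in B cells. The part of these markers in the GTPase ratios was not tested, other than by the T cell gates and their reweighting.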

How the data were processed

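The authors deposited UMI counts per gene and barcode for both libraries, as whole numbers with no normalization. Per the file headers the counts come from Cell Ranger 6.0.2. Cell Ranger 5.0.0 is the version in the submitters' processing notes, which also name the build mm10 and Seurat 4.0.3, so it is uncertain which version made the counts. Barcodes were kept from 500 UMIs, 200 genes and no more than 10% mitochondrial UMIs; 306 WT and 437 CKO barcodes lay over the last limit. Doublets were scored with Scrublet in Scanpy 1.11.5, and the highest scores were left out (0.8% per 1000 barcodes, 1304 in WT and 1513 in CKO). Counts were then summed per gate and library and scaled to CPM, without clustering. Levels have exact Poisson intervals, shares exact Clopper-Pearson intervals, and ratios exact conditional binomial intervals (scipy 1.17.1, numpy 2.4.6). UMIs of 1 cell are not independent, and the intervals cover counting error only. A gene needed a mean of 5 CPM over both libraries, or 20 in the Foxp3, Trdc and NK gates, and a ratio of at least 1.5 stands in for a call. From each pathway list the text names genes among the 2 highest and 2 lowest ratios in T and in B cells, with a mean of at least 20 CPM. The 10 genes, the lists and the alternatives were chosen with earlier results of these data known. The interval code was tested on simulated data. Shared 3′ sequence was computed on GENCODE M21 transcripts, and promoter sequences are from RefSeq (GRCm38.p6).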

Additional observations from a re-analysis of the deposited data

Results flagged for a closer look

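Gbp3 was the gene whose ratio differed most in direction between gates. It was 2.26 in Trdc T cells (20 WT and 131 CKO UMIs) and 2.81 in NK cells (6 and 50 UMIs), and 0.486 in Foxp3 T cells (79 and 28 UMIs). These 3 values were singled out because 2 gates lay above 1 and 1 below it, each with a counting interval that does not hold 1. In each gate Gbp3 passed the 20 CPM filter only through the library where it was high. The lower library stood at 12.9 CPM in Trdc cells (WT), 12.3 in NK cells (WT) and 19.3 in Foxp3 cells (CKO). With 1 library per genotype the difference between gates was not tested.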

How the results depend on the processing

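Alternatives are given as the summed CKO over WT ratio of the 10 genes unless stated. They cover the T, CD4, CD8, B and NK gates only. The summed ratio of 1.08 in Foxp3 cells was not put to them. Thinned means there were 1.64 UMIs per cell in WT and 1.97 in CKO, relatively farther apart. In T cells (1.39) it was 1.32 with totals free of ribosomal protein and mitochondrial genes, 1.32 after division by the median ratio of all genes, 1.43 with each cell weighted equally and 1.43 on cells thinned to 2000 UMIs. In CD8 cells (1.40) the first 2 settings gave 1.31 and 1.30. In B cells (1.28) it was 1.23 with doublets kept, with equal weights and on thinned cells, and in NK cells (1.66) 1.32 on thinned cells. Another setting kept only thinned cells without an antiviral UMI. It selects cells by genes that themselves differed between the libraries, with a UMI in 32.9% of WT and 46.1% of CKO T cells. Only there did the summed ratio fall below 1: 0.943 in T, 0.960 in CD4, 0.936 in CD8 and 0.978 in NK cells. In B cells it was 1.01. Among thinned cells without an antiviral UMI the count of genes at least 1.5-fold higher was 0 in T (from 2), 0 in CD4 (from 3), 0 in CD8 (from 2) and 1 in NK cells (from 4). At a mean of at least 20 CPM it was 1 in T and 1 in CD8 cells, where Gbp10 no longer passed, and without a filter it was 2 in B cells (from 0). That setting was already the NK minimum and was not run there.

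Single genes with an interval above 1 in the whole gate and a ratio below 1 in its cells without an antiviral UMI were, in T cells, Igtp 0.967, Irgm1 0.885, Irgm2 0.822, Tgtp1 0.750, Gbp2 0.868, Gbp4 0.811 and Gbp10 0.95; in CD4 cells Igtp 0.945, Irgm1 0.985, Tgtp1 0.725, Gbp4 0.765 and Gbp10 0.707; in CD8 cells Igtp 0.784, Irgm1 0.870, Irgm2 0.840, Tgtp1 0.707, Gbp4 0.994 and Gbp7 0.907; in B cells Tgtp1 0.415 and Gbp7 0.831; and in NK cells Gbp3 0.798 and Gbp4 0.735. Gbp4 in NK cells was 0.946 on thinned cells. Of 407 single-gene values, 346 moved by less than their counting interval, 38 by more, and 23 changed side. Those that changed side are the ones named here, all but the last from cells selected to lack an antiviral UMI. The cause was not tested.

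The share of T cells with a GTPase UMI was 5.95 points higher in CKO at 2000 UMIs, 8.34 at 1000 and 0.902 without thinning. In CD4 cells it was 6.27 and, unthinned, 2.40, and in CD8 cells 5.15 and -0.230. 2 alternatives were chosen after seeing the data: WT shares of antiviral UMI classes gave 1.07 in T and 1.03 in B cells, and leaving out Tgtp1 and Gbp10 gave values within counting error. No paired analysis was possible because each genotype has 1 library. Counts of Iigp1, Tgtp1 and Gbp10 in B and NK cells are too few for a difference to be read.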
